A study of Mus musculus with 18 samples.

Results

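Type I interferon stimulated genes are the genes that cells switch on when type I interferon binds its receptor. A list of 39 such genes was followed here, each found by its symbol among the 55401 gene rows of the study, and all 39 were present. The mice were C57BL/6N animals aged 7 weeks. RECTAS, a small molecule named as a rectifier of aberrant splicing, was given by mouth. The dose was 100 mg/kg, with 0.5% CMC (carboxymethyl cellulose) as the carrier, and the control mice had the carrier only, called vehicle below. Doses were 4 h apart, and colon, lung and liver were collected 8 h after dosing began. The 6 groups (vehicle or RECTAS in each tissue) held 3 libraries each, 18 in all. The labels do not say whether each library of a group stands for its own animal, or whether 1 animal gave all 3 tissues, so p-values measure the spread between these libraries, which may be technical.

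Type I interferons signal through the receptor chains Ifnar1 and Ifnar2 and the kinases Jak1 and Tyk2. Stat2 and Irf9 then act together in a complex that binds the interferon-stimulated response element in the promoters of target genes. The targets include RNA sensors, antiviral effectors and brakes on the pathway itself, and many are kept at a low tonic level in healthy tissue by small amounts of interferon.

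Promoters are shown because the response element is the sequence these genes are known to share. A promoter entry (250 bases before to 50 bases after the annotated start, RefSeq, GRCm38.p6) was matched for 30 of the 39 genes, giving 34 promoters. The core of the element, GAAANNGAAA, read on both strands as this or as TTTCNNTTTC, was held by 15 of 34 member promoters (44.1%), against 3.44% of all 32851 promoters of that length. No entry was matched for Usp18, Dhx58, Oas2, Rtp4, Mx1, Mx2, Zbp1, Parp9 and Parp14. A match describes the letters only.

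The 5 promoters below hold the core of the element. They belong to the members with the smallest summed unadjusted p for RECTAS over liver and lung among those that do. They are written 5′ to 3′ on the gene's strand, with matches of the core in capitals. They are Isg15 (chr4:156200769-156201068, minus strand), Ifit3b (chr19:34607707-34608006, plus strand), Ddx60 (chr8:61927837-61928136, plus strand), Ifit3 (chr19:34583279-34583578, plus strand) and Rsad2 (chr12:26456403-26456702, minus strand).
Isg15: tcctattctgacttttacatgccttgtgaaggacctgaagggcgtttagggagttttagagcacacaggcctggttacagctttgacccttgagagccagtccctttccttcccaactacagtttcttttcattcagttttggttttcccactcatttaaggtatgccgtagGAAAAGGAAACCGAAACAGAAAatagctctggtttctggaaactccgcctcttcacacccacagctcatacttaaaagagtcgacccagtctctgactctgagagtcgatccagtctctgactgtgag
Ifit3b: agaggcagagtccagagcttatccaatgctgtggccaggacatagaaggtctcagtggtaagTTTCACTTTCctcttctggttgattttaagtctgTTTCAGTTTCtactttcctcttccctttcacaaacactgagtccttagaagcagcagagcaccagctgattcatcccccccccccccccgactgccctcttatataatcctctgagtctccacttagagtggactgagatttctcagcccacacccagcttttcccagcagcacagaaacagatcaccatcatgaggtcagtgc
Ddx60: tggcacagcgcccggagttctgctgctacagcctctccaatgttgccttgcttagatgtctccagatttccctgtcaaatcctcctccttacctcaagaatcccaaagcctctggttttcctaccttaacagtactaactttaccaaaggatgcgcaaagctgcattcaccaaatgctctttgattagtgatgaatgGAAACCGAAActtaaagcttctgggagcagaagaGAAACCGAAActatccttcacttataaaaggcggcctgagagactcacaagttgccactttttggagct
Ifit3: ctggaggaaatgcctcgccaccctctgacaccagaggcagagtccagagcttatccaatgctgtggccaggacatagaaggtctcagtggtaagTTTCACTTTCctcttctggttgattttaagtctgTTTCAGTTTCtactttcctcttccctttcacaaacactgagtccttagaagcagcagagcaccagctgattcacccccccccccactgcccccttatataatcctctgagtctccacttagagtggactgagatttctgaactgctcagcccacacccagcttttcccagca
Rsad2: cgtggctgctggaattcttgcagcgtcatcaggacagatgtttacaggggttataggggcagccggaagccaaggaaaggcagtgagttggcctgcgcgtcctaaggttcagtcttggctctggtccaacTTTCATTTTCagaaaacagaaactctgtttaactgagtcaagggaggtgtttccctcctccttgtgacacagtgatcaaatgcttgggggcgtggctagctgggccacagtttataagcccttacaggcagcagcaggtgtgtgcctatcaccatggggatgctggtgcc
Isg15 held 3 overlapping matches, which began 78, 72 and 66 bases before its start. Those of Ddx60 began 53 and 19 bases before its start, and that of Rsad2 120 bases before. Ifit3 and Ifit3b are neighbours on chromosome 19, and their promoters share an identical run of 169 bases that holds both of their matches. Their longest coding transcripts were identical at 98.0% of 1697 aligned bases, and those of Oas1a and Oas1g at 97.5% of 1860. Reads of such copies could have been divided between them by the counting, so single values of these 4 genes are uncertain.

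Levels are TPM, a share of all transcripts adjusted for gene length, so genes can be compared with each other. TPM keeps no read depth, and the depth behind each value is unknown. Tissue labels were matched by marker genes: 8 hepatocyte markers summed to between 120000 and 150200 TPM in liver libraries and to at most 1942 TPM elsewhere. Mitochondrial transcripts made up between 8.09% and 18.2% of TPM in a library. No member was listed at 0 in any library.

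In vehicle libraries the tissue with the highest mean was not the same for all of the 39 genes. The lung had the highest mean for 22 of them, the colon for 13 and the liver for 4. The gap to the next tissue passed the test in 16 of the 22 lung genes, 10 of the 13 colon genes and 1 of the 4 liver genes (limma on log2(TPM + 1), Benjamini-Hochberg adjusted p under 0.05 over 16715 genes). This ranking of tissues was not made for all genes, so the counts cannot be read as a trait of the list. The median member stood at 21.0 TPM in lung, 16.7 TPM in colon and 9.45 TPM in liver. In bulk tissue, fewer cells of a type and less RNA per cell cannot be told apart.

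Between lung and liver 27 of 39 members differed, 23 higher and 4 lower in lung, where 88% of all genes tested differed, 74.5% higher and 13.5% lower. Between lung and colon 31 differed, 21 higher and 10 lower in lung, against 75.7% of all genes (51% higher, 24.7% lower). Between liver and colon 31 differed, 12 higher and 19 lower in liver, against 79.9% of all genes (16.1% higher, 63.8% lower). Counted in either direction, these members lie near or below the share of all genes, most of which differ between these tissues. The median member was 0.999 higher in lung than in liver on the log2(TPM + 1) scale, against 1.10 for all genes. For lung against colon it was 0.81, against 0.35, and for liver against colon −0.20, against −0.68. Differences passed in all 3 contrasts for 18 members, and the share of all genes that did so was not counted.

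**Figure D1:**
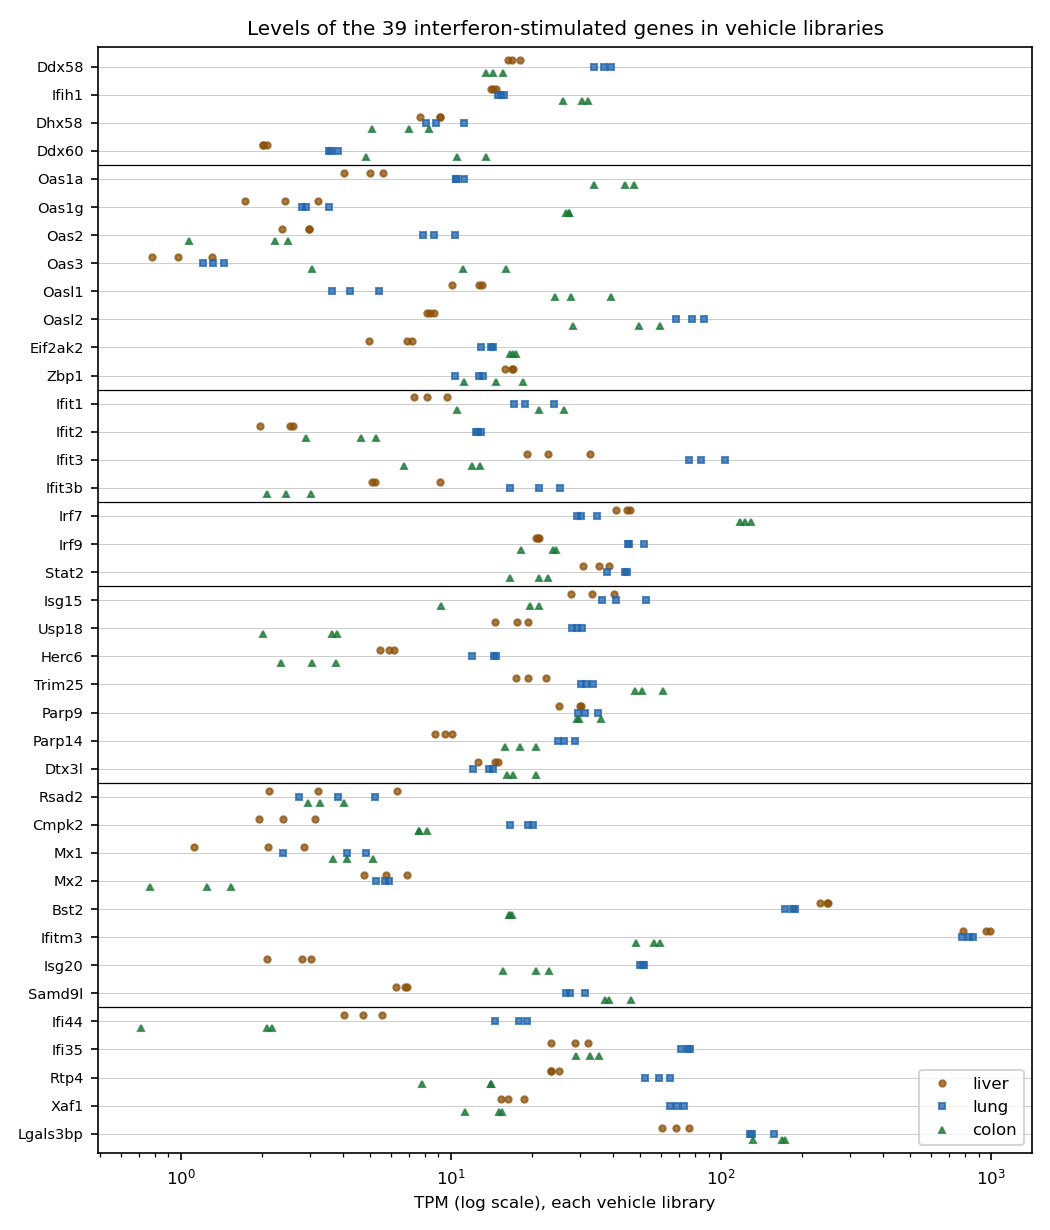
Each point is the TPM of a gene in 1 vehicle library (log axis), with 3 libraries per tissue marked by shape and colour, and lines separate the functional classes, from RNA sensors at the top to other induced genes at the bottom. Ifitm3 and Bst2 lie far higher in liver and lung than in colon, while Irf7, Oas1a and Oas1g lie highest in colon.

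Among the RNA sensors, Ddx58 (RIG-I) was highest in lung at 36.7 ± 2.67 TPM (SD, n = 3), against 17.1 ± 0.835 in liver and 14.5 ± 1.02 in colon. Ifih1 (MDA5, the sensor of long double-stranded RNA, chr2:62595798-62646255) was instead highest in colon at 29.7 ± 3.25 TPM, and its levels in lung (15.4 ± 0.37) and liver (14.4 ± 0.307) were not told apart (adjusted p = 0.361). Ddx60, a helicase linked to these sensors, was also highest in colon at 9.64 ± 4.39 TPM. Dhx58 (LGP2) ranged from 6.81 TPM in colon to 9.34 TPM in lung, and none of its 3 differences passed.

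The OAS enzymes make the oligoadenylates that activate RNase L, and their order across tissues was not shared. Oas1a was at 33.8, 47.5 and 44.1 TPM in the colon libraries, at 10.4, 10.4 and 11.2 in lung and at 4.01, 5.60 and 5.0 in liver. Its liver minus colon difference was −2.86 (SE 0.14, adjusted p = 1.05e-07). Oas1g (27.2 TPM), Oas3 (10.04 TPM) and Oasl1 (30.5 TPM), a brake on Irf7 translation, were also highest in colon. Oasl2 and Oas2 were highest in lung. Oasl2 read 86.7, 78.3 and 68.0 TPM in lung, 28.3, 49.8 and 59.3 in colon and 8.34, 8.17 and 8.68 in liver, a lung minus liver difference of 3.06 (SE 0.23, adjusted p = 1.06e-06). Eif2ak2 (PKR, which halts translation on double-stranded RNA) was lowest in liver at 6.34 ± 1.2 TPM. Zbp1, a sensor of Z-form nucleic acids, was at 12.1 to 16.6 TPM, and passed only between lung and liver (adjusted p = 0.0311).

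The IFIT proteins bind viral RNA, and all 4 genes had their highest mean in lung. Ifit3 was at 104.0, 84.2 and 76.5 TPM in lung, at 32.7, 22.9 and 19.2 in liver and at 6.73, 12.0 and 12.9 in colon. The 3 tissues did not overlap, and the lung minus colon difference was 2.99 (SE 0.25, adjusted p = 4.52e-06). Ifit1 was the exception among them, at 19.99 ± 3.59 TPM in lung and 19.3 ± 7.98 TPM in colon, which were not told apart (adjusted p = 0.714), and 8.38 ± 1.19 TPM in liver.

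Irf7, the factor that amplifies interferon production (chr7:141262706-141266481), ran against the other transcription factors. It was at 118.1, 129.8 and 122.9 TPM in colon, at 41.0, 44.8 and 46.1 in liver and at 34.7, 29.3 and 30.4 in lung. The lung minus colon difference was −1.94 (SE 0.08, adjusted p = 4.66e-08), and liver exceeded lung as well (lung minus liver −0.47, SE 0.08, adjusted p = 0.000475). Irf9 and Stat2, which act together at the response element, had their highest means in lung, at 47.5 ± 3.66 and 42.3 ± 3.97 TPM. Stat2 in lung was not told apart from liver (34.9 ± 3.9 TPM, adjusted p = 0.0827).

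Isg15 encodes a ubiquitin-like modifier, Herc6 its ligase in mice, and Usp18 the protease that removes it and also damps receptor signalling. Usp18 (chr6:121245906-121270917) was at 30.7, 28.1 and 29.3 TPM in lung, at 17.6, 14.5 and 19.2 in liver and at 2.01, 3.80 and 3.62 in colon, and all 3 differences passed. Its lung minus colon difference was 2.902 (SE 0.18, adjusted p = 4.97e-07). Isg15 followed the same order, with means of 43.4, 33.8 and 16.7 TPM, but lung and liver were not told apart (adjusted p = 0.273). Herc6 had the same order too, at 13.7, 5.86 and 3.06 TPM. Trim25, a ubiquitin ligase of the RIG-I pathway, was instead highest in colon, at 50.8, 60.9 and 48.0 TPM, with 33.5, 31.8 and 30.4 in lung and 17.4, 19.4 and 22.4 in liver, and the tissues did not overlap. Parp9, which works with the ligase Dtx3l, stayed between 28.5 and 32.0 TPM, and none of its 3 differences passed. Parp9 and Dtx3l overlap by 682 bases on opposite strands of chromosome 16. The library kit marks strand, but whether the counting used it is not given in the sources used here.

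Ifitm3, which blocks virus entry at endosomes, was the most abundant member in liver and lung. It was at 787.4, 955.9 and 988.6 TPM in liver, at 856.4, 831.7 and 784.8 in lung and at 56.7, 48.5 and 59.6 in colon. Liver and lung were not told apart (adjusted p = 0.243). Bst2 (tetherin, which holds budding virus at the cell surface) was at 247.8, 248.6 and 232.1 TPM in liver, at 184.6, 172.9 and 188.9 in lung and at 16.9, 16.6 and 16.5 in colon. Its liver minus colon difference was 3.79 (SE 0.06, adjusted p = 1.34e-10). Isg20, an RNA exonuclease, showed the widest lung minus liver difference of the 39 genes, 3.85 (SE 0.15, adjusted p = 1.69e-08). It was at 51.7, 50.3 and 51.5 TPM in lung, at 23.0, 15.6 and 20.8 in colon and at 2.08, 2.82 and 3.03 in liver. Cmpk2, a nucleotide kinase gene that neighbours Rsad2 on chromosome 12, was at 20.2, 19.3 and 16.6 TPM in lung, 7.64, 8.18 and 7.60 in colon and 3.13, 1.94 and 2.4 in liver. Rsad2 (viperin) did not follow its neighbour: its means lay between 3.43 and 3.93 TPM, and no tissue difference passed. Mx1 and Mx2 are dynamin-like GTPase genes that most inbred strains carry in defective form. The annotation used here lists Mx2 as a polymorphic pseudogene, and their means lay between 1.18 and 5.79 TPM.

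Of the other induced genes, Lgals3bp, a secreted glycoprotein, was the most abundant member in colon, at 132.0, 168.4 and 172.3 TPM. It was at 157.0, 130.1 and 128.7 in lung, not told apart from colon (adjusted p = 0.236), and at 60.7, 68.0 and 76.3 in liver, below both. Rtp4, Xaf1, Ifi35 and Ifi44 were highest in lung, at 58.8, 68.8, 74.6 and 17.2 TPM, and each passed against both other tissues. Samd9l, which restrains translation of viral RNA, was highest in colon at 40.8 ± 4.97 TPM, with 28.6 ± 2.45 in lung and 6.63 ± 0.346 in liver, and passed in all 3 contrasts.

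RECTAS was then set against vehicle within each tissue. In liver and lung most members had lower means with RECTAS, in colon most had higher means, and no member passed the test in any tissue. In liver 33 of the 38 members tested lay below 0, with a median log2 difference of −0.27 and a range from −0.63 to 0.46, where 60% of all 11944 genes lay below 0 with a median of −0.04. Oas3 fell under the expression filter there (at least 1 TPM in at least 3 libraries). In lung 34 of 39 lay below 0, with a median of −0.14 and a range from −0.52 to 0.16, where only 34.6% of all 15699 genes did and the median was 0.06. In colon 5 of 39 lay below 0 and 34 above, with a median of 0.11 and a range from −0.25 to 0.58, where 42.8% of all 14282 genes lay below 0 and the median was 0.02. The members and the wider lists below were chosen with earlier results of these data known. Their gaps from all genes are therefore descriptive only.

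By limma 0 members passed in liver, where 0.0167% of all genes did, 0 in lung (0.00637% of all genes) and 0 in colon (0% of all genes). At an unadjusted p under 0.05, liver had 14 members lower and 1 higher, against 8.03% of all genes lower and 11.6% in either direction. The 14 were Usp18, Ifih1, Ddx60, Herc6, Zbp1, Ddx58, Oasl2, Xaf1, Mx2, Ifit2, Dhx58, Parp14, Rtp4 and Irf7. Lung had 7 lower and 0 higher, against 1.88% of all genes lower and 12.6% in either direction. The 7 were Oasl2, Cmpk2, Isg15, Usp18, Mx2, Oasl1 and Irf7. Colon had 0, against 0.812% of all genes lower and 1.62% in either direction. The RECTAS libraries lay wholly below the vehicle libraries for 14 members in liver, against 13% of all genes, and wholly above for 1, Isg20, against 5.75%. In lung they lay wholly below for 7 members, against 3.18% of all genes, and wholly above for 0, against 16.1%. In colon they lay wholly below for 0 members, against 2.01% of all genes, and wholly above for 0, against 3.43%. Rescaling the libraries by their median ratio moved the share of all genes below 0 to 48.5% in liver, 49.5% in lung and 45.3% in colon. Members below 0 then numbered 30 of 38, 37 of 39 and 5 of 39.

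**Figure D2:**
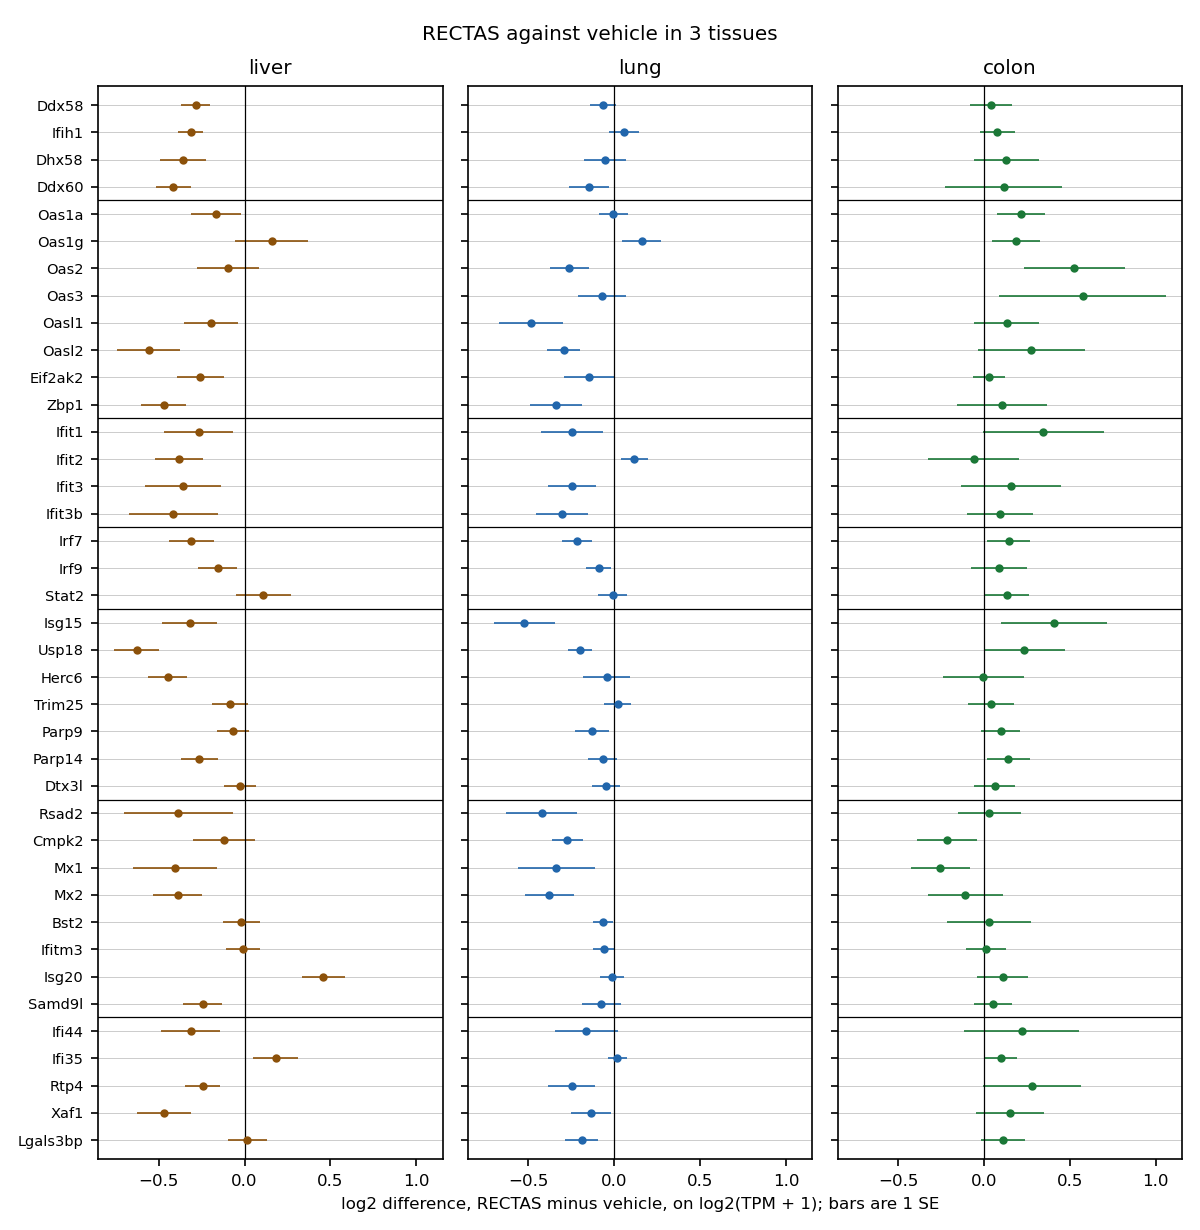
Points are the difference between RECTAS and vehicle for each gene on the log2(TPM + 1) scale, with bars of 1 SE from the limma fit of 3 against 3 libraries, and horizontal lines separate the functional classes. Most points lie left of 0 in liver and lung and right of 0 in colon, and none of them passed the test. Oas3 was not tested in liver.

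All 4 RNA sensors lay below 0 in liver, with a median difference of −0.34 and a range from −0.42 to −0.29, and 0 of them passed. Ifih1 was at 14.1, 14.7 and 14.3 TPM with vehicle and at 11.7, 11.1 and 11.3 with RECTAS in liver, a difference of −0.31 (SE 0.07, adjusted p = 0.254). Ddx60 was at 2.01, 2.01 and 2.09 against 1.22, 1.36 and 1.25 TPM, a difference of −0.42 (SE 0.10, adjusted p = 0.268). Ddx58 was at 16.9, 16.3 and 17.96 against 14.7, 13.2 and 13.5 TPM (−0.29, SE 0.08, adjusted p = 0.309). The groups did not overlap for any of the 4 sensors in liver. RECTAS lay wholly below vehicle for 13% of all genes there, and 60% of all genes lay below 0. Replicates of Ifih1 and Ddx60 differed by less than the gap between the groups.

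In lung and colon the sensors differed little. Ifih1 was at 15.8, 15.01 and 15.4 against 16.9, 14.2 and 17.2 TPM in lung and at 26.1, 32.3 and 30.7 against 30.8, 30.1 and 32.8 in colon. Ddx58 was at 39.3, 36.9 and 34.0 against 33.4, 34.2 and 37.3 TPM in lung and at 14.3, 13.5 and 15.5 against 14.4, 17.2 and 13.3 in colon. Vehicle and RECTAS libraries overlapped for both genes in both tissues. The lung difference of Ifih1 was 0.06, and it was −0.0024 to −0.0036 after each of the 3 rescalings of the libraries.

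Among the OAS genes and related sensors, the lowest lung p belonged to Oasl2. It was at 86.7, 78.3 and 68.0 TPM with vehicle and at 60.2, 62.5 and 65.8 with RECTAS in lung, a difference of −0.30 (SE 0.09, adjusted p = 0.32). In liver it was at 8.34, 8.17 and 8.68 against 5.13, 4.02 and 7.42 TPM (−0.56, SE 0.18, adjusted p = 0.359). The groups lay apart in both tissues but not in colon, where Oasl2 was at 28.3, 49.8 and 59.3 against 64.9, 62.5 and 37.1 TPM. Zbp1 was lower in liver without overlap, at 16.6 ± 0.582 against 11.8 ± 2.28 TPM, and Oasl1 in lung, at 4.42 ± 0.901 against 2.89 ± 0.73 TPM. All 8 genes of this class lay above 0 in colon, with a median of 0.20.

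In colon the smallest p of the list was that of Oas2, at 1.07, 2.50 and 2.24 TPM with vehicle and 4.64, 3.15 and 1.99 with RECTAS (0.53, SE 0.29, adjusted p = 0.99992). Oas1a was next, at 33.8, 47.5 and 44.1 against 52.8, 47.8 and 44.3 TPM (0.21, SE 0.14, adjusted p = 0.99992). Oas1g was at 26.8, 27.5 and 27.3 against 37.2, 32.0 and 25.2 TPM. The groups overlapped for all 3 genes. Summed over the near-copies Oas1a and Oas1g, the colon level was 69.0 ± 7.51 TPM with vehicle and 79.7 ± 10.2 with RECTAS.

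The IFIT genes were below 0 in liver for 4 of 4, in lung for 3 of 4 and in colon for 1 of 4. The shares of all genes below 0 in these tissues were 60%, 34.6% and 42.8%. Ifit1 was at 9.68, 8.14 and 7.33 against 5.86, 5.46 and 9.52 TPM in liver, where RECTAS library 3 exceeded 2 of the vehicle libraries. It was at 24.0, 17.1 and 18.8 against 14.4, 14.6 and 21.5 TPM in lung and at 10.6, 26.2 and 21.2 against 29.8, 26.5 and 15.9 in colon. The groups overlapped in every tissue. Ifit3 was at 32.7, 22.9 and 19.2 against 18.2, 15.3 and 23.8 TPM in liver, at 104.0, 84.2 and 76.5 against 74.7, 63.5 and 84.1 in lung and at 6.73, 12.0 and 12.9 against 16.0, 11.3 and 8.23 in colon. Its differences were −0.36 (SE 0.22), −0.25 (SE 0.14) and 0.16 (SE 0.29), and the groups overlapped. Summed with its copy Ifit3b it read 31.4 ± 9.22 against 23.7 ± 5.84 TPM in liver and 109.2 ± 18.4 against 90.7 ± 11.9 in lung. Ifit2 alone of the class lay apart between groups in liver, at 2.36 ± 0.351 against 1.58 ± 0.323 TPM, and its lung difference was 0.12.

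Of the transcription factors, Irf7 was at 41.0, 44.8 and 46.1 TPM with vehicle and 32.3, 31.4 and 43.0 with RECTAS in liver (−0.31, SE 0.13, adjusted p = 0.429). RECTAS library 3 lay above vehicle library 1. In lung Irf7 was at 34.7, 29.3 and 30.4 against 25.1, 27.2 and 28.4 TPM, without overlap (−0.22, SE 0.09, adjusted p = 0.37), and in colon at 118.1, 129.8 and 122.9 against 115.5, 137.3 and 160.3 with overlap. Irf9 was at 21.3, 21.1 and 20.7 against 17.3, 17.1 and 22.3 TPM in liver, at 51.7, 45.7 and 45.2 against 42.7, 45.8 and 44.9 in lung and at 18.2, 24.4 and 23.8 against 24.3, 27.4 and 19.2 in colon. Its groups overlapped in all 3 tissues.

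Stat2 differed from most members in liver in lying above 0. It was at 30.8, 35.5 and 38.5 against 29.6, 41.4 and 43.3 TPM there (0.11, SE 0.16, adjusted p = 0.825), at 45.0, 44.1 and 37.7 against 42.1, 39.8 and 43.8 in lung and at 16.6, 22.8 and 21.2 against 23.0, 22.2 and 21.0 in colon. The groups overlapped in each tissue.

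Usp18 had the smallest p of the list in liver. It was at 17.6, 14.5 and 19.2 TPM with vehicle and at 9.47, 10.5 and 12.1 with RECTAS, a difference of −0.63 (SE 0.13, unadjusted p = 0.00202, adjusted p = 0.215 by limma). In lung it was at 30.7, 28.1 and 29.3 against 23.9, 25.6 and 26.7 TPM (−0.20, SE 0.07, adjusted p = 0.337). The groups did not overlap in liver or lung. In colon, where its level was lowest, they overlapped at 2.01, 3.80 and 3.62 against 4.98, 3.19 and 3.35 TPM.

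Isg15, the modifier that Usp18 removes, had the lowest lung difference of the list. It was at 53.0, 36.3 and 41.0 against 24.2, 29.4 and 36.1 TPM there (−0.52, SE 0.18, adjusted p = 0.337), and the highest RECTAS library lay just under the lowest vehicle library. In liver it was at 40.1, 27.8 and 33.4 against 22.8, 26.3 and 31.3 TPM (−0.32, SE 0.16) and in colon at 9.17, 21.2 and 19.6 against 26.9, 17.7 and 19.7 (0.41, SE 0.31), with overlap in both. The ISG15 ligase Herc6 was at 6.18, 5.92 and 5.48 against 4.30, 3.39 and 4.45 TPM in liver without overlap (−0.45, SE 0.11, adjusted p = 0.282). Its lung and colon means were close, at 13.7 against 13.3 and 3.06 against 3.10 TPM. All 7 genes of this class lay below 0 in liver, with Dtx3l (−0.03) and Parp9 (−0.07) nearest to it, where 60% of all genes lay below 0. Parp14, a mono-ADP-ribosyltransferase, was at 9.45 ± 0.688 against 7.72 ± 0.823 TPM there, without overlap (−0.26, SE 0.11, adjusted p = 0.421).

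Ifitm3, Bst2 and Lgals3bp, the most abundant members in liver, differed least there, while Irf7, next in vehicle level, had a difference of −0.31. Ifitm3 was at 787.4, 955.9 and 988.6 against 879.3, 892.2 and 928.2 TPM (−0.01, SE 0.10), and Bst2 averaged 242.9 ± 9.33 against 241.0 ± 34 TPM. Lgals3bp was at 68.3 ± 7.83 against 69.0 ± 6.84 TPM. Isg20 went the other way from most members in liver, at 2.08, 2.82 and 3.03 against 3.90, 4.01 and 4.00 TPM, without overlap (0.46, SE 0.13, adjusted p = 0.298). In lung, where it is abundant, Isg20 was at 51.2 ± 0.75 against 50.8 ± 3.59 TPM.

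Among the other restriction factors in lung, Cmpk2 was at 20.2, 19.3 and 16.6 against 14.8, 14.7 and 16.2 TPM (−0.27, SE 0.09, adjusted p = 0.329). Mx2 was at 5.26, 5.69 and 5.88 against 4.02, 3.28 and 5.10 TPM (−0.38, SE 0.14, adjusted p = 0.358). Neither overlapped between groups. Mx1 was below 0 in all 3 tissues, at 2.02 ± 0.868 against 1.24 ± 0.415 TPM in liver and 3.78 ± 1.26 against 2.72 ± 0.553 TPM in lung. In colon it was at 4.12, 3.66 and 5.17 against 4.18, 3.02 and 3.17 TPM (−0.25, SE 0.17, adjusted p = 0.99992). Its groups overlapped in every tissue.

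Rsad2 was at 6.33, 2.12 and 3.21 against 2.09, 2.08 and 3.53 TPM in liver and at 5.23, 3.81 and 2.75 against 2.31, 2.31 and 3.25 in lung, and vehicle library 1 was highest in both. Samd9l lay apart between the groups in liver, at 6.63 ± 0.346 against 5.47 ± 0.78 TPM, although its p missed even the unadjusted threshold (0.0709). Its lung and colon levels overlapped, at 28.6 ± 2.45 against 27.2 ± 3.87 and 40.8 ± 4.97 against 42.2 ± 3.42 TPM.

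Of the other induced genes, Xaf1, linked to cell death, was at 16.3, 15.4 and 18.6 against 9.23, 12.4 and 14.3 TPM in liver, without overlap (−0.47, SE 0.16, adjusted p = 0.365). Rtp4, a chaperone of G protein-coupled receptors, was at 25.1, 23.4 and 23.4 against 19.2, 18.3 and 23.0 TPM there, with RECTAS library 3 just under the vehicle libraries (−0.24, SE 0.10, adjusted p = 0.427). Ifi44 overlapped in every tissue, at 4.78 ± 0.771 against 3.68 ± 0.937 TPM in liver and 17.2 ± 2.31 against 15.5 ± 4.27 in lung. Ifi35 was above 0 in liver, at 28.2 ± 4.4 against 32.0 ± 3.08 TPM, and close between groups in lung, at 74.6 ± 3.01 against 75.5 ± 1.2. In colon all 5 genes of this class lay above 0, with a median of 0.15, where 42.8% of all genes lay below 0. This class too was not recomputed without colon vehicle library 1.

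**Figure D3:**
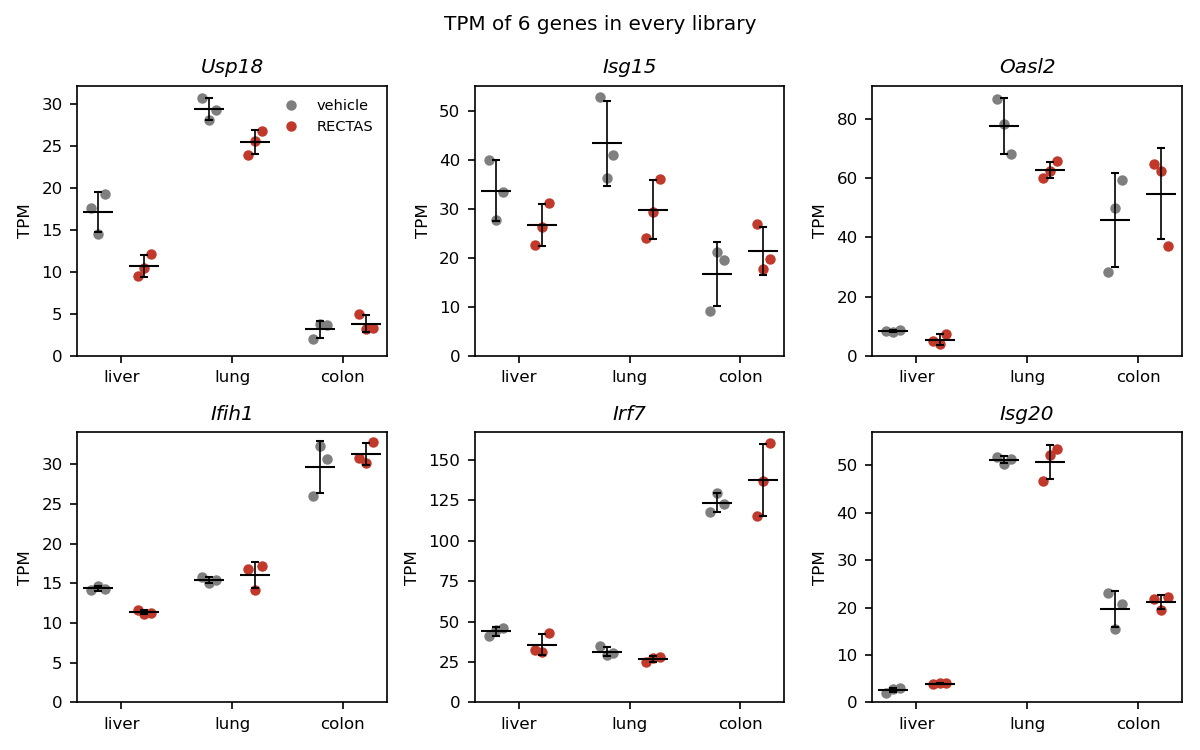
Points are the TPM of 6 genes in each of the 18 libraries, with black bars for the mean and SD of 3 libraries, grey for vehicle and red for RECTAS. Usp18 lies lower with RECTAS in liver and lung, Isg20 lies higher in liver, and Irf7 stands highest in colon.

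Single libraries moved these values. The mean log2(TPM + 1) over the 39 genes was 3.68 ± 0.031 with vehicle and 3.46 ± 0.162 with RECTAS in liver. RECTAS libraries 1 and 2 averaged 3.37 and 3.35, while library 3 averaged 3.64, level with the lowest vehicle library (3.64), and had the highest value of its group for 31 members. Without that library the median difference was −0.30, and without RECTAS library 2 it was −0.20. The unadjusted count in liver was 15 with all libraries. Leaving out 1 library moved it to between 9 (vehicle library 3 or RECTAS library 2) and 19. The share of all genes at this threshold was not counted with a library left out.

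In lung the mean over the genes was 4.57 ± 0.104 with vehicle and 4.41 ± 0.096 with RECTAS. Vehicle library 1 was highest of its group for 29 members and RECTAS library 3 for 27. Leaving out vehicle library 1 moved the median difference from −0.14 to −0.09. It was −0.08 when RECTAS library 1 was left out and −0.07 when RECTAS library 2 was. The unadjusted count of 7 became 1, 0 and 3 without those libraries, 4 without vehicle library 2 and 14 without RECTAS library 3.

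In colon the mean was 3.94 ± 0.239 with vehicle and 4.06 ± 0.17 with RECTAS. Vehicle library 1, at 3.66 against 4.11 and 4.04 for the others, was lowest of its group for 28 members, and RECTAS library 3 for 25. Without vehicle library 1 the colon median was 0.01 and 18 of 39 members lay below 0. Without RECTAS library 1 or 2, 13 members lay below 0. The median was 0.19 without RECTAS library 3 and 0.18 without vehicle library 2.

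**Figure D4:**
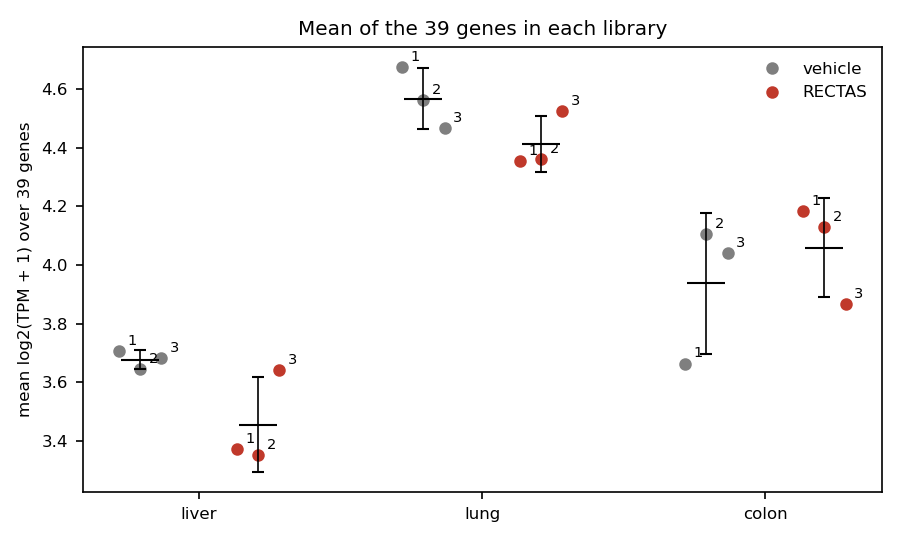
Each point is the mean log2(TPM + 1) over the 39 genes in 1 library, labelled by its replicate number, with black bars for the mean and SD of 3 libraries. Liver RECTAS library 3 (3.64) sits with the vehicle libraries, and colon vehicle library 1 (3.66) sits below the other 5 colon libraries.

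Marker genes of cell types moved with some of these libraries. The 8 leukocyte markers summed to 97.4, 92.5 and 132.1 TPM in the liver RECTAS libraries, highest in library 3, against 89.0 to 107.0 with vehicle, and the 6 Kupffer cell markers to 187.6, 150.2 and 277.6 against 170.3 to 236.4. In lung the leukocyte sum was 535.1, 530.9 and 418.0 TPM with vehicle and 448.2, 510.8 and 491.6 with RECTAS, and the 8 lung epithelium markers did not overlap, at 177900, 170900 and 190200 against 167000, 161300 and 161600. The 8 hepatocyte markers in lung summed to 26.3, 702.4 and 1942 against 3.59, 81.3 and 754.4. In colon, vehicle library 1 had the highest sum of the 6 smooth muscle markers, 5396 TPM against 1717 to 3236 in the other 5, and the lowest of the 8 colon epithelium markers, 19410 against 20530 to 36340. The 6 markers of plasmacytoid dendritic cells, known as strong interferon producers, summed to 1.12, 0.98 and 1.44 against 0.65, 0.98 and 0.62 TPM in liver, where Cox6a2 was listed at 0 in all 3 RECTAS libraries, and to 31.6 to 49.3 against 30.6 to 70.4 in lung. In colon the same 6 summed to 1226 to 1953 against 1488 to 2073, above lung although Cd300c was listed at 0 in every colon library and Cox6a2 in the RECTAS ones, so this sum cannot be read as a measure of these cells. No marker of the other lists named here was at 0 in all 3 libraries of those groups. The part of these cells in the results was not tested.

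The direction of the difference was compared across tissues for the 38 members tested in all 3. It was below 0 in both liver and lung for 30, of which 26 were above 0 in colon and 4 below 0 in all 3. Oas1g and Ifi35 were above 0 in all 3 tissues. The share of all genes with each of these patterns was not counted. The colon direction leaned on 1 library: without colon vehicle library 1, 18 of 39 members lay below 0 in colon. The difference between tissues was tested by interaction in 1 limma fit of all 18 libraries, and 0 members passed in each of the 3 contrasts. For liver against colon 36 of 39 members lay below 0 with a median of −0.38, where 59.6% of all 17537 genes lay below 0, their median was −0.04 and 0.0285% passed. At an unadjusted p under 0.05 there were 8 members, against 5.37% of all genes, led by Usp18 (−0.87, SE 0.24, adjusted p = 0.554) and Ifih1 (−0.39, SE 0.12, adjusted p = 0.595). Leaving out 1 library moved this count of 8 to between 3 (liver RECTAS library 2) and 16 (colon RECTAS library 3). It was 4 without colon vehicle library 1, 5 without colon RECTAS library 2, liver vehicle library 3 or liver RECTAS library 1, 12 without liver RECTAS library 3 and 14 without colon vehicle library 2.

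For lung against colon 38 of 39 lay below 0 with a median of −0.22, where 41% of all genes lay below 0, their median was 0.04 and 0.0114% passed. The 3 members at an unadjusted p under 0.05, against 3.22% of all genes, were Isg15 (−0.93, SE 0.37, adjusted p = 1), Oas2 and Oasl1. That count was 0 without colon vehicle library 1, 1 without lung vehicle or RECTAS library 1, 6 without colon vehicle library 2 and 7 without colon RECTAS library 3. For liver against lung 25 of 39 lay below 0 with a median of −0.07, near that of all genes, of which 64% lay below 0 and 0.0228% passed. Ifih1 (−0.37, SE 0.12, adjusted p = 0.351) and Isg20 (0.47, SE 0.17, adjusted p = 0.415) were the 2 at an unadjusted p under 0.05, against 8.98% of all genes. Both contrasts with colon share the colon libraries, vehicle library 1 among them.

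The rest of the pathway was read from wider lists. The interferons themselves were below the filter in every tissue for all 21 ligand genes, and Ifnb1 was listed at 0 in all 18 libraries. Of the receptors, kinases and signal transducers, 0 passed in any tissue. In liver 12 of 13 lay below 0 (median −0.16), against 60% of all genes (median −0.04). In lung 3 of 15 did (median 0.085), against 34.6% of all genes (median 0.06). In colon 3 of 15 did, against 42.8% of all genes. Ifnar1, a receptor chain, was at 13.2, 12.7 and 12.9 against 11.9, 11.6 and 10.3 TPM in liver (−0.19, SE 0.08, adjusted p = 0.459) and Ifnar2 at 79.6 ± 4.83 against 88.8 ± 1.78 TPM in lung. Socs1, a feedback inhibitor of the kinases, was at 2.4, 1.81 and 1.62 against 1.13, 1.31 and 1.28 TPM in lung without overlap (−0.39, SE 0.14, adjusted p = 0.354). Its relative Socs3 was at 7.20, 17.96 and 34.0 against 5.63, 6.80 and 5.37 TPM in liver, where the vehicle libraries themselves differed widely.

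Of all genes tested, 60% lay below 0 in liver, 34.6% in lung and 42.8% in colon. Beside these shares, genes of nucleic acid sensing and interferon induction lay below 0 for 16 of 17, 6 of 22 and 8 of 19. Of these genes 0 passed. The leading one in liver was Nlrc5, an activator of MHC class I genes, at 18.1, 16.8 and 17.3 against 11.2, 12.9 and 13.3 TPM (−0.46, SE 0.09, adjusted p = 0.208). Irf1, an inducer of interferon genes, averaged 23.9 ± 7.5 against 19.0 ± 3.17 TPM in liver, 98.4 ± 9.95 against 91.4 ± 1.42 TPM in lung and 123.9 ± 15.7 against 117.4 ± 5.4 in colon. Of 78 further interferon-stimulated genes 0 passed. Beside the same shares of all genes, 58 of 70 lay below 0 in liver (median −0.18). In lung 48 of 76 did (median −0.05) and in colon 32 of 64 (median −0.0017). The leading one in lung was Ms4a4c, at 9.05, 9.37 and 11.2 against 6.02, 6.85 and 5.84 TPM without overlap (−0.58, SE 0.11, adjusted p = 0.264). In colon it was Ifi27l2a, which lay below 0 at 41.6, 33.4 and 40.1 against 33.7, 28.6 and 28.4 TPM (−0.33, SE 0.12, adjusted p = 0.99992).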

How the data were processed

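Per the labels' protocols, RNA was taken up in TRIzol and libraries were built with Illumina's TruSeq stranded mRNA kit. Gene TPM values, 1 table per library, are what the authors deposited, and they were not altered. The submitters' processing notes list HISAT2 2.2.0, RSEM 1.3.0 and GRCm38 and give no roles. TPM is a share of a fixed total, so a rise of a few abundant genes lowers all others. Groups came from the labels.

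The tests used limma 3.58.1 in R 4.3.3 (trend on, two-sided) on log2(TPM + 1), which understates changes of low genes. A gene entered a test if 3 or more of its libraries reached 1 TPM, and p-values were adjusted over all genes tested by Benjamini-Hochberg, at 0.05. RECTAS was tested against vehicle within each tissue, vehicle tissues in 1 fit of 9 libraries and interactions in 1 fit of 18. The procedure was tested on simulated data with independent noise per gene. The simulated shifts were larger than the RECTAS difference of any member, so recovery of such small differences was not tested. Coordinates are from GENCODE M21 (GRCm38) and promoters from RefSeq (GRCm38.p6), both read with Python 3.11.15. The members and lists were chosen with earlier results of these data known. Values in every library are given for the 5 members with the smallest p for RECTAS per tissue, the 5 most abundant per tissue, those that differ most between tissues and key genes of the pathway. Between libraries, 0 pairs held identical values. Alternatives were other pseudocounts, filters and scalings, the replicate number as a block, 1 fit of all libraries and leaving out each library. An item of the pathway lists is not reported here.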

Additional observations from a re-analysis of the deposited data

How the results depend on the processing

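No member passed for RECTAS in any tissue, or for the difference of its effect between tissues, under any alternative run (0 in each). Members that differed between vehicle tissues numbered 24 to 29 for lung against liver, 29 to 33 for lung against colon and 28 to 33 for liver against colon. The median difference kept its sign under every alternative, between −0.3048 and −0.1647 in liver (the latter with a pseudocount of 5 TPM), −0.2001 and −0.0659 in lung and 0.0121 and 0.1908 in colon. Single genes were recomputed for the 5 members with the smallest p in each tissue and for Isg15, Usp18, Irf7, Irf9, Stat2, Ifih1, Ddx58, Ifit1 and Ifit3, not for the other members. Among these, small differences changed sign. In lung these were Ifih1 after median ratio scaling (adjusted p = 0.9957), quantile normalisation (0.9953) and rescaling with mitochondrial genes and the 20 highest left out (0.9949), and Stat2 without vehicle library 1 or 2 or RECTAS library 2 (adjusted p 0.7069 to 0.9779 over the 6 libraries left out). In colon they were Ddx58 without vehicle or RECTAS library 2, Ifih1 and Ifit1 without vehicle library 1, Ifit3 without vehicle or RECTAS library 1, and Irf9 without vehicle library 1 or RECTAS library 2, with adjusted p 0.9952 to 1 for each gene over the 6 libraries left out. The cause was not tested.

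Deviations of libraries with the same replicate number were correlated at −0.294 to 0.409 between vehicle and RECTAS within tissues, and not all pairs exceeded 0.1 in any tissue, so the numbers were not taken as pairs. With the replicate number as a block, 0 members passed for RECTAS in each tissue, Usp18 in liver had an adjusted p of 0.3233, and 26, 31 and 30 members differed between vehicle tissues. Not every library correlated best with its own number: liver vehicle library 1 did so with RECTAS library 3 (0.064). Vehicle and RECTAS libraries come from different mice, so these correlations cannot show whether 1 animal gave all 3 tissues. For vehicle libraries, same-number correlations were 0.021 to 0.07 for lung with liver. They were −0.084 to 0.056 for lung with colon and 0.026 to 0.067 for liver with colon. Whether tissues shared animals stays unknown. With 3 libraries a group and no read depth, small differences cannot be resolved.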
